A study of Mus musculus with 4 samples.

Results

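The TGF-beta and BMP pathway genes described here are 52 ligands, receptors, antagonists, Smads and Id target genes, listed by symbol and compared between 2 mouse cell lines. All 52 had a row among the 23358 gene rows of the deposited count tables. The rule is a list of symbols that uses no measured value, but the list was drawn up with earlier results of these data known. The lines, 2xSCS70 and 2xSCS2F10, were labelled as progenitors of interstitial cells of Cajal (ICC), the pacemaker cells of gut muscle, and both came from the muscle coat of the stomach. Each was sequenced in 2 libraries by RNA-seq of polyadenylated RNA. The 2xSCS70 cells came from H-2Kb-tsA58 mice, which carry a temperature-sensitive large T antigen of SV40 under an interferon-inducible promoter, and were grown at 39.5 °C without interferon-gamma. The 2xSCS2F10 cells came from C57BL/6J mice and were grown at 37 °C with 5% cell-free chick embryo extract, which the 2xSCS70 protocol does not list. The medium, a serum-free neural stem cell proliferation medium, was the same for both. Each line is 1 clonal derivative, so the clone, the strain, the transgene, the temperature and the extract cannot be told apart as sources of a difference. The labels do not say whether the 2 libraries of a line came from separate cultures, so each p-value reflects library-to-library spread alone, and that spread may be technical.

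Ligands of the TGF-beta superfamily bind pairs of type I and type II serine/threonine kinase receptors. TGF-beta and activin receptors phosphorylate Smad2 and Smad3, BMP receptors phosphorylate Smad1, Smad5 and Smad9, and both groups enter the nucleus with Smad4. TGF-beta is secreted in a latent form held by latent TGF-beta binding proteins, BMPs are held off their receptors by secreted antagonists, and the inhibitory Smads and Id genes are common early targets of the pathway. In the gut wall, BMP signalling patterns the muscle layers and TGF-beta drives contractile and matrix genes in smooth muscle cells and fibroblasts.

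Total counts per library were 48971264 and 44737008 in 2xSCS70 and 40319972 and 45098902 in 2xSCS2F10. Every count was even, so 1 sequenced fragment was read as 2 counts. Values are CPM, counts relative to the library total with TMM scaling, unless RPKM is named. RPKM values, per length of the gene model, are those deposited and were not TMM-scaled. The median log2 fold change over all tested genes, 2xSCS70 over 2xSCS2F10, was 0.02 in the edgeR fit and 0.25 on RPKM with 0.1 added. The limit that a count of 0 allows, 3 fragments, stood at 0.109 and 0.123 CPM in the 2xSCS70 libraries and at 0.154 and 0.157 CPM in the 2xSCS2F10 libraries. The ICC marker Kit had 0 and 1 fragments in 2xSCS70 and 0 in both libraries of 2xSCS2F10. The lines are labelled as progenitors, and the part of that state in the low Kit counts was not tested. Of the other ICC markers, Ano1 had 63 and 62 fragments in 2xSCS70 and 580 and 350 in 2xSCS2F10, and Etv1 had 15 and 19 in 2xSCS70 and 1 and 7 in 2xSCS2F10. The summed CPM of 4 markers of ICC progenitors (Cd34, Cd44, Igf1r and Insr) was 718 and 679 in 2xSCS70, against 433 and 384 in 2xSCS2F10. Of these 4, Cd34 and Cd44 were higher in 2xSCS70 (edgeR adjusted p = 0.0120 and 0.00690) and Igf1r was lower (0.0174), while Insr was not called (0.839). In bulk libraries of this kind, fewer cells of a type and less RNA per cell cannot be told apart. The libraries of 2xSCS2F10 differed more from each other than those of 2xSCS70, since the chi-square between replicates, divided by its degrees of freedom, was 45.4 in 2xSCS70 and 110 in 2xSCS2F10.

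Of the 52 genes, 49 passed the filter on low counts, and 26 of these differed between the lines by edgeR's quasi-likelihood test at a Benjamini-Hochberg adjusted p under 0.05, the threshold for every change named here. In 2xSCS70, 7 were higher (14.3% of those tested), namely Tgfb2, Ltbp1, Gdf5, Inha, Acvrl1, Tgfbr3 and Nog, against 18.8% of all 14496 tested genes. Lower were 19 (38.8%), against 21.8% of all tested genes. A change of at least 2-fold was called for 5 higher genes (10.2%, against 11.8% of all tested genes) and for 12 lower genes (24.5%, against 13.3%). The libraries of the lines did not overlap for 38 of the 49, against 77.4% of all tested genes. The median log2 fold change, 2xSCS70 over 2xSCS2F10, was -0.22 over the 49 genes and 0.02 over all tested genes. On the deposited RPKM values with a pseudocount of 1, limma called 9 of the genes higher and 14 lower. Bmp5, Bmp7 and Gdf10 were not tested. The smallest p that an exact permutation test of 2 libraries against 2 allows is 0.333, so single genes were tested only within the fit across all genes. Leaving out 2xSCS70 replicate 1, or its replicate 2, left 1 gene higher (Ltbp1) and 7 lower (Ltbp2, Ltbp4, Bmp2, Bmp6, Bmpr1b, Fstl3 and Chrd). Leaving out 2xSCS2F10 replicate 1 gave 14 higher and 26 lower, and leaving out its replicate 2 gave 16 higher and 27 lower. In such a fit, the lone library is assumed to vary like those of the other line.

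**Figure D1:**
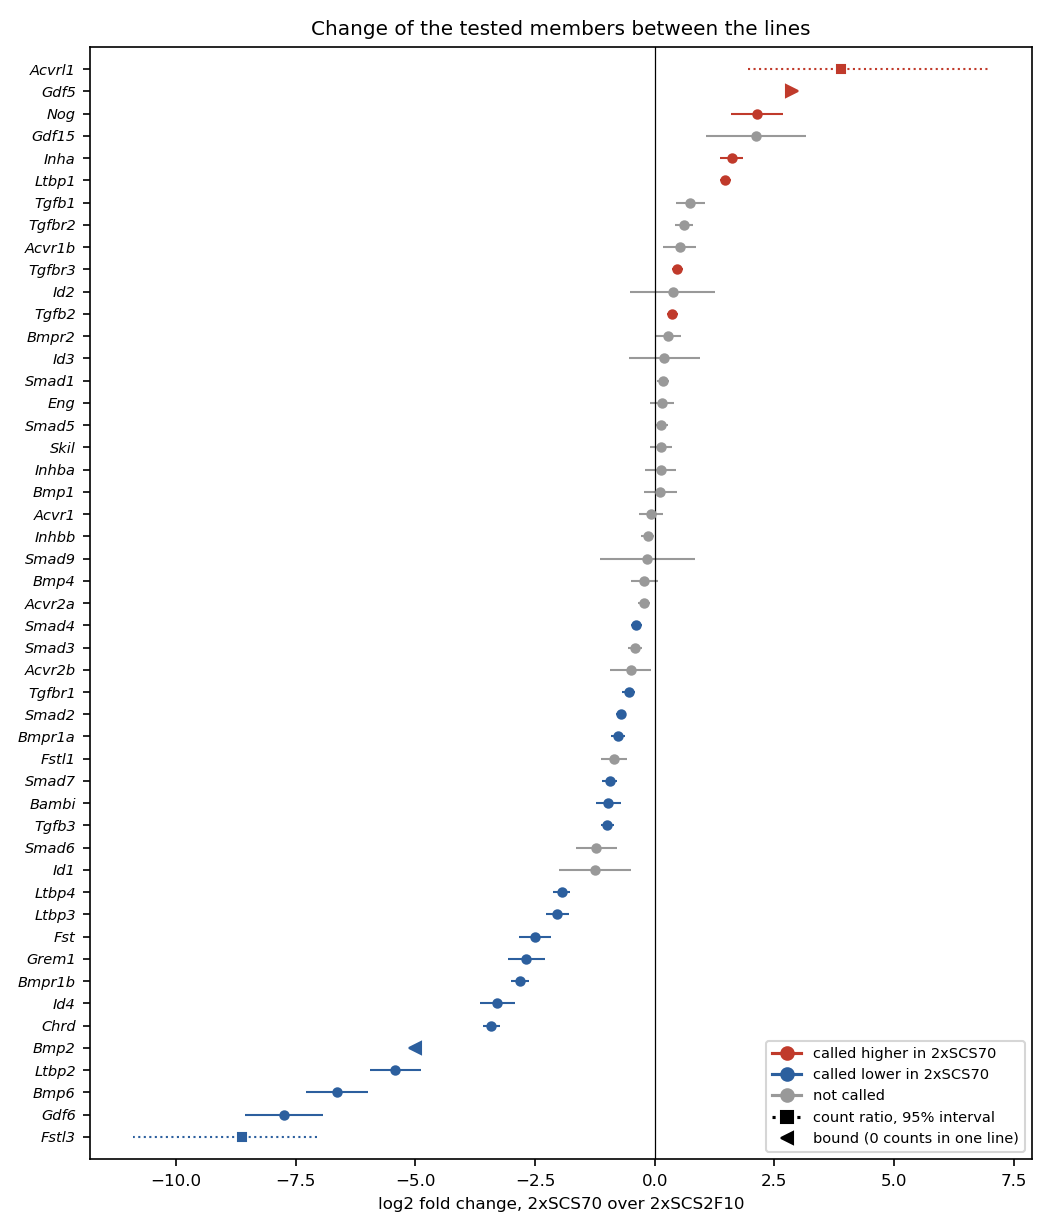
Log2 fold change of each of the 49 tested genes, 2xSCS70 over 2xSCS2F10, with bars of 1 SE. Squares with dotted lines are count ratios with their 95% interval for Acvrl1 and Fstl3, and triangles are bounds for Bmp2 and Gdf5, which had 0 counts in 1 line. Of the called genes, 7 lie to the right of 0 and 19 to the left, and Fstl3, Gdf6, Bmp6 and Ltbp2 lie farthest left.

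The 3 TGF-beta ligands did not move together. Tgfb2 was modestly higher in 2xSCS70, Tgfb3 was about 2-fold lower, and Tgfb1 did not pass the test. All 3 encode secreted dimers that signal through the same receptor pair. Tgfb2 (mm10, chromosome 1, 186623186 to 186705992) had 152 and 155 CPM in 2xSCS70, against 119.5 and 118 CPM in 2xSCS2F10. The libraries of each line lay close together and the lines did not overlap, with a log2 fold change of 0.37 ± 0.11 (SE, edgeR adjusted p = 0.0455). That call is narrow, since DESeq2 gave an adjusted p of 0.0632. Tgfb3 (chromosome 12, 86056743 to 86079041) had 64.8 and 66.7 CPM in 2xSCS70, against 118 and 142 CPM in 2xSCS2F10. Both 2xSCS70 libraries lay below both 2xSCS2F10 libraries, a log2 fold change of -0.99 ± 0.14 (edgeR adjusted p = 0.00659). Tgfb1 (chromosome 7, 25687002 to 25704996) had 45.6 and 43.7 CPM in 2xSCS70, against 18.6 and 34.7 CPM in 2xSCS2F10. Both 2xSCS70 libraries lay above, but the 2xSCS2F10 libraries lay 1.87-fold apart, and the log2 fold change of 0.74 ± 0.31 missed the threshold (edgeR adjusted p = 0.111). On RPKM with a pseudocount of 1 it passed (limma adjusted p = 0.0282). The calls of Tgfb2 (edgeR adjusted p = 0.282 and 0.316) and Tgfb3 (0.101 and 0.0951) ended without 2xSCS70 replicate 1 or 2.

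All 4 latent TGF-beta binding proteins, extracellular matrix proteins of which several anchor the latent ligand, changed between the lines, and in opposite directions. Ltbp1 rose 2.79-fold in 2xSCS70, while Ltbp2, Ltbp3 and Ltbp4 fell. Higher were 25% of the 4, against 18.8% of all tested genes, and lower were 75%, against 21.8%. Ltbp1 (chromosome 17, 75005529 to 75392967) had 371 and 346 CPM in 2xSCS70, against 129 CPM in both libraries of 2xSCS2F10. Its log2 fold change was 1.48 ± 0.12 (edgeR adjusted p = 0.00154), and the spread within each line was small beside it. Ltbp2 (chromosome 12, 84783212 to 84876495), which unlike the others is known for binding fibrillin microfibrils rather than latent TGF-beta, had 1.20 and 1.07 CPM in 2xSCS70, against 28.4 and 68.6 CPM in 2xSCS2F10. The lines lay far apart, with a log2 fold change of -5.41 ± 0.52 (edgeR adjusted p = 0.00256), although the 2xSCS2F10 libraries differed 2.42-fold. The fold was 42.6 over all 4 libraries and 25.0 without 2xSCS2F10 replicate 2. Ltbp3 (chromosome 19, 5740904 to 5758532) had 131 and 104 CPM in 2xSCS70, against 392 and 571 CPM in 2xSCS2F10, a log2 fold change of -2.03 ± 0.24 (edgeR adjusted p = 0.00415). No library of one line lay within the other, and the call ended without 2xSCS70 replicate 1 (edgeR adjusted p = 0.0571) or replicate 2 (0.0691). Ltbp4 (chromosome 7, 27305141 to 27337612) had 37.8 and 28.4 CPM in 2xSCS70, against 126 and 129 CPM in 2xSCS2F10, again without overlap, a log2 fold change of -1.94 ± 0.18 (edgeR adjusted p = 0.00219).

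The promoters of Ltbp1 and Ltbp2 are shown because these paralogues moved furthest apart. They are the 250 bases before each start site in the RefSeq table (build GRCm38.p6), at chr17:75005279-75005528 on the plus strand for Ltbp1 and chr12:84876492-84876741 on the minus strand for Ltbp2. Letters are in capitals only where 1 of the 3 Smad-related motifs described further on occurs, and neither promoter holds one.
Ltbp1: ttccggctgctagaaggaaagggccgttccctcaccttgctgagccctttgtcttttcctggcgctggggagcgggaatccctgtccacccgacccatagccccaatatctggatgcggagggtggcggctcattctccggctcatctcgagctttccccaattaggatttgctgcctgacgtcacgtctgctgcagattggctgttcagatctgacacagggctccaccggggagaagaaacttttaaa
Ltbp2: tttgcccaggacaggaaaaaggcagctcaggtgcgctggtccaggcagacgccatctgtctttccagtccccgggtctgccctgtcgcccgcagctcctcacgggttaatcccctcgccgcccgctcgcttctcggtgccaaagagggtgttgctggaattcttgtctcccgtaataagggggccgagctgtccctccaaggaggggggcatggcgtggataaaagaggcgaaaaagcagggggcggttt

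Among the 9 BMP and GDF ligands, Bmp4 made up most of the total in 2xSCS70 and did not pass the test, while Bmp2, Bmp6 and Gdf6 were low or undetected in 2xSCS70 and present in 2xSCS2F10. Gdf5 was detected in 2xSCS70 alone. Gdf6, Gdf5 and the BMPs signal through Smad1, Smad5 and Smad9. Gdf6 (chromosome 4, 9844372 to 9862345), a ligand of joint and bone development, had 0.580 and 0.493 CPM in 2xSCS70, against 50.5 and 181 CPM in 2xSCS2F10. The lines were separated by a log2 fold change of -7.74 ± 0.82 (edgeR adjusted p = 0.00323), and the 2xSCS2F10 libraries by 3.59-fold. The fold of 214 became 338 without 2xSCS2F10 replicate 1 and 93.4 without its replicate 2, and the call ended without 2xSCS70 replicate 1 (edgeR adjusted p = 0.0558) or replicate 2 (0.0562). Bmp6 (chromosome 13, 38345716 to 38499728), a BMP known for its role in iron balance, had 1 and 6 fragments in 2xSCS70, against 244 and 292 fragments in 2xSCS2F10. Both 2xSCS70 libraries lay far below, a log2 fold change of -6.64 ± 0.65 (edgeR adjusted p = 0.00263), with a fold of 99.9 that became 55.8 without 2xSCS70 replicate 1 and 356 without its replicate 2. Bmp2 (chromosome 2, 133553199 to 133562885), an osteogenic BMP, had 0 fragments in both 2xSCS70 libraries, against 75 and 69 fragments (3.85 and 3.62 CPM) in 2xSCS2F10. It was at least 32.2-fold lower in 2xSCS70, set against the floor of 3 fragments per library (edgeR adjusted p = 0.00199).

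Gdf5 (chromosome 2, 155941025 to 155945364), a ligand of joint development, had 28 and 31 fragments in 2xSCS70, against 0 in both 2xSCS2F10 libraries. It was at least 7.35-fold higher in 2xSCS70 (edgeR adjusted p = 0.00591), a call that ended without 2xSCS70 replicate 1 (0.0647) or replicate 2 (0.0694). Bmp4 (chromosome 14, 46383520 to 46390599), a BMP of gut and many other mesenchymes, had 89.6 and 79.0 CPM in 2xSCS70, against 124 and 71.5 CPM in 2xSCS2F10. The lines overlapped, with a log2 fold change of -0.21 ± 0.28 (edgeR adjusted p = 0.566) that turned to 0.07 on RPKM with either pseudocount and to 0.22 without 2xSCS2F10 replicate 1. Gdf15, a stress-induced cytokine, had 15 and 9 fragments in 2xSCS70, against 4 and 0 fragments in 2xSCS2F10, and was not called (edgeR adjusted p = 0.162). It was called higher on RPKM with pseudocounts of 1 and 0.1 (limma adjusted p = 0.0389 and 0.0359) and by edgeR without 2xSCS2F10 replicate 1 (adjusted p = 0.00029), which leaves 2xSCS2F10 at 0. Bmp5 had 1 fragment in 2xSCS70 and 0 in 2xSCS2F10, and Bmp7 and Gdf10 had 0 in all 4 libraries, which allows up to 3 fragments each.

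Of the activin and inhibin subunits, the alpha subunit gene Inha rose 3.05-fold in 2xSCS70 and the beta subunit genes did not pass the test. Inhibins, made of an alpha and a beta subunit, oppose activins, made of beta subunits. Inha (chromosome 1, 75507077 to 75510354) had 5.30 and 4.85 CPM in 2xSCS70, against 1.75 and 1.57 CPM in 2xSCS2F10. Both 2xSCS70 libraries lay above both 2xSCS2F10 libraries, a log2 fold change of 1.61 ± 0.24 (edgeR adjusted p = 0.00809), and the call ended without 2xSCS70 replicate 1 (0.111) or replicate 2 (0.0983). Inhba, for the beta A subunit, had 39.1 and 42.5 CPM in 2xSCS70, between the 25.6 and 49.2 CPM of 2xSCS2F10 (edgeR adjusted p = 0.771). Inhbb, for the beta B subunit, had 27.9 and 26.5 CPM in 2xSCS70, just below the 31.2 and 29.2 CPM of 2xSCS2F10 (edgeR adjusted p = 0.378), a difference whose sign turned on RPKM.

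Among the 6 type I receptors, the kinases that phosphorylate the Smads, 3 fell in 2xSCS70 (50%, against 21.8% of all tested genes). Another 1 rose (16.7% of the 6, against 18.8%), while none of the 4 type II receptors passed the test. Bmpr1b fell most, and Bmpr1a, the other BMP type I receptor, and Tgfbr1, the TGF-beta type I receptor also called ALK5, fell less than 2-fold. Bmpr1b (chromosome 3, 141837136 to 141982251) had 5.26 and 4.40 CPM in 2xSCS70, against 31.2 and 36.7 CPM in 2xSCS2F10. With a log2 fold change of -2.81 ± 0.18 (edgeR adjusted p = 0.000993), it was among the members called whichever library was left out. Bmpr1a (chromosome 14, 34411068 to 34502546) had 153 and 164 CPM in 2xSCS70, against 243 and 296 CPM in 2xSCS2F10, a log2 fold change of -0.77 ± 0.14 (edgeR adjusted p = 0.0142). Tgfbr1 (chromosome 4, 47353305 to 47414924) had 29.5 and 33.3 CPM in 2xSCS70, against 44.2 and 47.2 CPM in 2xSCS2F10, a log2 fold change of -0.54 ± 0.13 (edgeR adjusted p = 0.0301). In all 3 genes both 2xSCS70 libraries lay below both 2xSCS2F10 libraries, where 77.4% of all tested genes did not overlap in one direction or the other. Acvrl1 (chromosome 15, 101128537 to 101145336), the receptor also called ALK1 and best known from endothelium, had 23 and 17 fragments in 2xSCS70, against 0 and 2 fragments in 2xSCS2F10. The scaled ratio of its fragments was 14.8 (exact 95% interval 3.85 to 127, counting error only), with an edgeR adjusted p of 0.0269. Without 2xSCS2F10 replicate 1 the ratio was 7.34 (interval 1.90 to 62.7), and without its replicate 2, which leaves that line at 0, Acvrl1 was at least 4.98-fold higher in 2xSCS70. Endothelial markers other than Kdr had 20 fragments or fewer in each library. Of these, Cdh5 had 10 and 14 fragments in 2xSCS70, against 0 in both 2xSCS2F10 libraries (edgeR adjusted p = 0.0145), Pecam1 had 5 in both, against 1 in both, and Tek had 4 in both, against 17 and 20 (edgeR adjusted p = 0.00939). Kdr had 115 and 77 fragments in 2xSCS70, against 95 and 157 in 2xSCS2F10, and made up most of the sum. The summed level of the 6 on the list was 4.90 and 4.19 CPM in 2xSCS70, against 5.80 and 9.34 CPM in 2xSCS2F10, and the part of these markers in the Acvrl1 difference was not tested. The calls of Bmpr1a (edgeR adjusted p = 0.167 and 0.139), Tgfbr1 (0.271 and 0.180) and Acvrl1 (0.161 and 0.141) ended without 2xSCS70 replicate 1 or 2. On RPKM with pseudocounts of 1 and 0.1, Bmpr1a (limma adjusted p = 0.0512 and 0.0556) and Tgfbr1 (0.322 and 0.318) were not called, nor was Tgfbr1 with upper quartile scaling (edgeR adjusted p = 0.0518). The activin type I receptors Acvr1, also called ALK2 and used by BMPs, and Acvr1b, also called ALK4, were not called. Acvr1b had 13.4 and 12 CPM in 2xSCS70, against 5.96 and 11.8 CPM in 2xSCS2F10 (edgeR adjusted p = 0.278). Acvr1 had 103 and 98.1 CPM in 2xSCS70, within the 80.7 to 131 CPM of 2xSCS2F10 (edgeR adjusted p = 0.818), and its sign turned with upper quartile scaling.

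Tgfbr2 (chromosome 9, 116087695 to 116175363), the type II receptor for TGF-beta, had 334 and 302 CPM in 2xSCS70, against 176 and 239.6 CPM in 2xSCS2F10. Both 2xSCS70 libraries lay higher, but the log2 fold change of 0.61 ± 0.18 just missed the threshold (edgeR adjusted p = 0.0513), and DESeq2 passed it (adjusted p = 0.0311). The BMP type II receptor Bmpr2 had 139.8 and 149 CPM in 2xSCS70, within the 87.2 to 151 CPM of 2xSCS2F10 (edgeR adjusted p = 0.443). Acvr2a and Acvr2b, the activin type II receptors, differed by log2 fold changes of -0.22 ± 0.12 and -0.50 ± 0.43 (edgeR adjusted p = 0.204 and 0.388). For Acvr2a, which overlaps Orc4 by 511 bases, the sign turned on RPKM. The co-receptor betaglycan, Tgfbr3 (chromosome 5, 107106570 to 107289595), which presents TGF-beta to its receptors, had 40.2 and 43.4 CPM in 2xSCS70, against 30.2 and 30.1 CPM in 2xSCS2F10. That was a log2 fold change of 0.47 ± 0.12 without overlap (edgeR adjusted p = 0.0343), and the call ended without 2xSCS70 replicate 1 (0.212) or replicate 2 (0.295). It also ended on RPKM with pseudocounts of 1 and 0.1 (limma adjusted p = 0.0619 and 0.0541) and with a replicate block (edgeR adjusted p = 0.0700). Endoglin, Eng, an endothelial co-receptor, had 3.30 and 2.79 CPM in 2xSCS70, against 2.67 and 2.78 CPM in 2xSCS2F10, and was not called (edgeR adjusted p = 0.630). Its row overlaps Fpgs, a gene with a mean of 48.9 CPM, by 61 bases.

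Of the 7 extracellular antagonists and modulators, 4 were lower in 2xSCS70 (57.1%, against 21.8% of all tested genes) and 1 higher (14.3%, against 18.8%). Fst, Fstl3, Grem1 and Chrd fell, each by more than 2-fold, and Nog rose. Fstl3 and Fst bind activins and related ligands, and Nog, Grem1 and Chrd bind BMPs. Fstl3 (chromosome 10, 79777274 to 79782630) had 3 and 0 fragments in 2xSCS70, against 308 and 564 fragments in 2xSCS2F10. The scaled ratio of 2xSCS2F10 to 2xSCS70 fragments was 392 (exact 95% interval 134 to 1903, counting error only), and the edgeR adjusted p was 0.00234. The ratio was 208 without 2xSCS70 replicate 2, and without its replicate 1, which leaves that line at 0, Fstl3 was at least 185-fold lower in 2xSCS70. Chrd (chromosome 16, 20733127 to 20742384) had 3.95 and 3.99 CPM in 2xSCS70, against 46.5 and 38.1 CPM in 2xSCS2F10. The libraries of each line lay close together, and the log2 fold change was -3.41 ± 0.17 (edgeR adjusted p = 0.000618). Chrd overlaps Thpo, at a mean of 2.38 CPM, by 1385 bases. Fst (chromosome 13, 114452262 to 114458730) had 9.36 and 10.4 CPM in 2xSCS70, against 38.9 and 72.5 CPM in 2xSCS2F10, a log2 fold change of -2.50 ± 0.33 (edgeR adjusted p = 0.00561). Grem1 (chromosome 2, 113748675 to 113758648) had 8 and 12 fragments in 2xSCS70, against 51 and 46 fragments in 2xSCS2F10, a log2 fold change of -2.68 ± 0.39 (edgeR adjusted p = 0.00722). Nog (chromosome 11, 89300638 to 89302559) had 70 and 49 fragments in 2xSCS70, against 15 and 5 fragments in 2xSCS2F10. The lines did not overlap for any of these genes, nor did they for 77.4% of all tested genes. The log2 fold change of Nog was 2.13 ± 0.55 (edgeR adjusted p = 0.0332). The fold for Nog, 4.38 over all libraries, became 8.54 without 2xSCS2F10 replicate 1. Without 2xSCS70 replicate 1 or 2 the calls of Fst (edgeR adjusted p = 0.0787 and 0.0726), Grem1 (0.0880 and 0.0644) and Nog (0.199 and 0.154) ended.

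Fstl1, a secreted glycoprotein that modulates BMP signalling and the member with the highest level per length in both lines, had 1259 and 1286 CPM in 2xSCS70, against 1735 and 2866 CPM in 2xSCS2F10. The lines did not overlap, yet the 2xSCS2F10 libraries differed 1.65-fold and the edgeR adjusted p was 0.0602, while DESeq2 gave 0.00911. Bmp1, a metalloprotease that cleaves chordin and procollagens, had 206 and 171 CPM in 2xSCS70, within the 115 to 233 CPM of 2xSCS2F10 (edgeR adjusted p = 0.805).

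The Fstl3 promoter is shown because Fstl3 was among the genes that fell most and its promoter holds 1 of the motifs. It lies at chr10:79777024-79777273 on the plus strand (RefSeq, GRCm38.p6), and its capitals mark 1 CAGA box, read here on the other strand as TGTCTG.
Fstl3: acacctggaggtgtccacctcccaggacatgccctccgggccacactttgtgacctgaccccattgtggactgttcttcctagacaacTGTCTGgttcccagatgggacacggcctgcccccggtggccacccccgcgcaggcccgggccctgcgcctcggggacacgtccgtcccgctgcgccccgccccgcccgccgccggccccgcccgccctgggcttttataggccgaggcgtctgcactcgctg

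No change of 2-fold or more was called for the 6 receptor-regulated and common Smads. Over all tested genes, 11.8% were called higher and 13.3% lower by that much. For Smad9, at -0.16 ± 0.99 on the log2 scale, the 2xSCS2F10 libraries lay too far apart to say whether it changed. Smad2 and Smad4, both on chromosome 18, fell (33.3% of the 6, against 21.8% of all tested genes). Smad1, Smad3, Smad5 and Smad9 did not pass the test. Smad2, a transducer of TGF-beta and activin, had 70.9 and 74.4 CPM in 2xSCS70, against 119 and 118 CPM in 2xSCS2F10. The lines did not overlap, a log2 fold change of -0.71 ± 0.11 (edgeR adjusted p = 0.00871). Smad4, the common partner, had 78.0 and 77.1 CPM in 2xSCS70, against 97.4 and 105 CPM in 2xSCS2F10. Its log2 fold change of -0.38 ± 0.11 was narrowly called (edgeR adjusted p = 0.0488), and DESeq2 did not call it (adjusted p = 0.0548). The calls of Smad2 (edgeR adjusted p = 0.138 and 0.118) and Smad4 (0.293 and 0.313) ended without 2xSCS70 replicate 1 or 2. Smad3, the other TGF-beta transducer, had 73.4 and 73.0 CPM in 2xSCS70, against 87.0 and 107 CPM in 2xSCS2F10 (edgeR adjusted p = 0.0773). The BMP transducers Smad1 and Smad5 had log2 fold changes of 0.17 ± 0.12 and 0.14 ± 0.14 (edgeR adjusted p = 0.293 and 0.457). On RPKM with a pseudocount of 1, neither Smad2 nor Smad4 was called (limma adjusted p = 0.137 and 0.549).

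Of the 4 feedback inhibitors, Smad7 and Bambi fell by just under 2-fold in 2xSCS70 (50%, against 21.8% of all tested genes). Smad6 and Skil did not pass the test. Smad7 and Bambi, like Smad2 and Smad4, lie on chromosome 18, and the part of that location in these calls was not tested. Smad7, an inhibitory Smad that blocks TGF-beta and BMP type I receptors and is itself a target gene, had 34.2 and 32.9 CPM in 2xSCS70, against 56.9 and 72.2 CPM in 2xSCS2F10. Both 2xSCS70 libraries lay below, a log2 fold change of -0.94 ± 0.16 (edgeR adjusted p = 0.0108). Bambi, a pseudoreceptor without a kinase, had 36 and 34 fragments in 2xSCS70, against 52 and 50 fragments in 2xSCS2F10, a log2 fold change of -0.97 ± 0.27 (edgeR adjusted p = 0.0407). Without 2xSCS70 replicate 1 or 2 the calls of Smad7 (edgeR adjusted p = 0.117 and 0.128) and Bambi (0.274 and 0.244) ended. Skil, a transcriptional repressor of Smads, had 167 and 182 CPM in 2xSCS70, within the 126 to 193 CPM of 2xSCS2F10 (edgeR adjusted p = 0.664). Smad6, the inhibitory Smad of the BMP branch, had 16.4 and 13.6 CPM in 2xSCS70, against 49.3 and 20.6 CPM in 2xSCS2F10. The lines did not overlap, but the 2xSCS2F10 libraries differed 2.39-fold and the log2 fold change of -1.22 ± 0.43 was not called by edgeR (adjusted p = 0.0748), although DESeq2 called it (adjusted p = 0.0107). Its fold of 2.33 became 1.39 without 2xSCS2F10 replicate 1 (edgeR adjusted p = 0.00554) and 3.29 without its replicate 2 (8.36e-17).

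**Figure D2:**
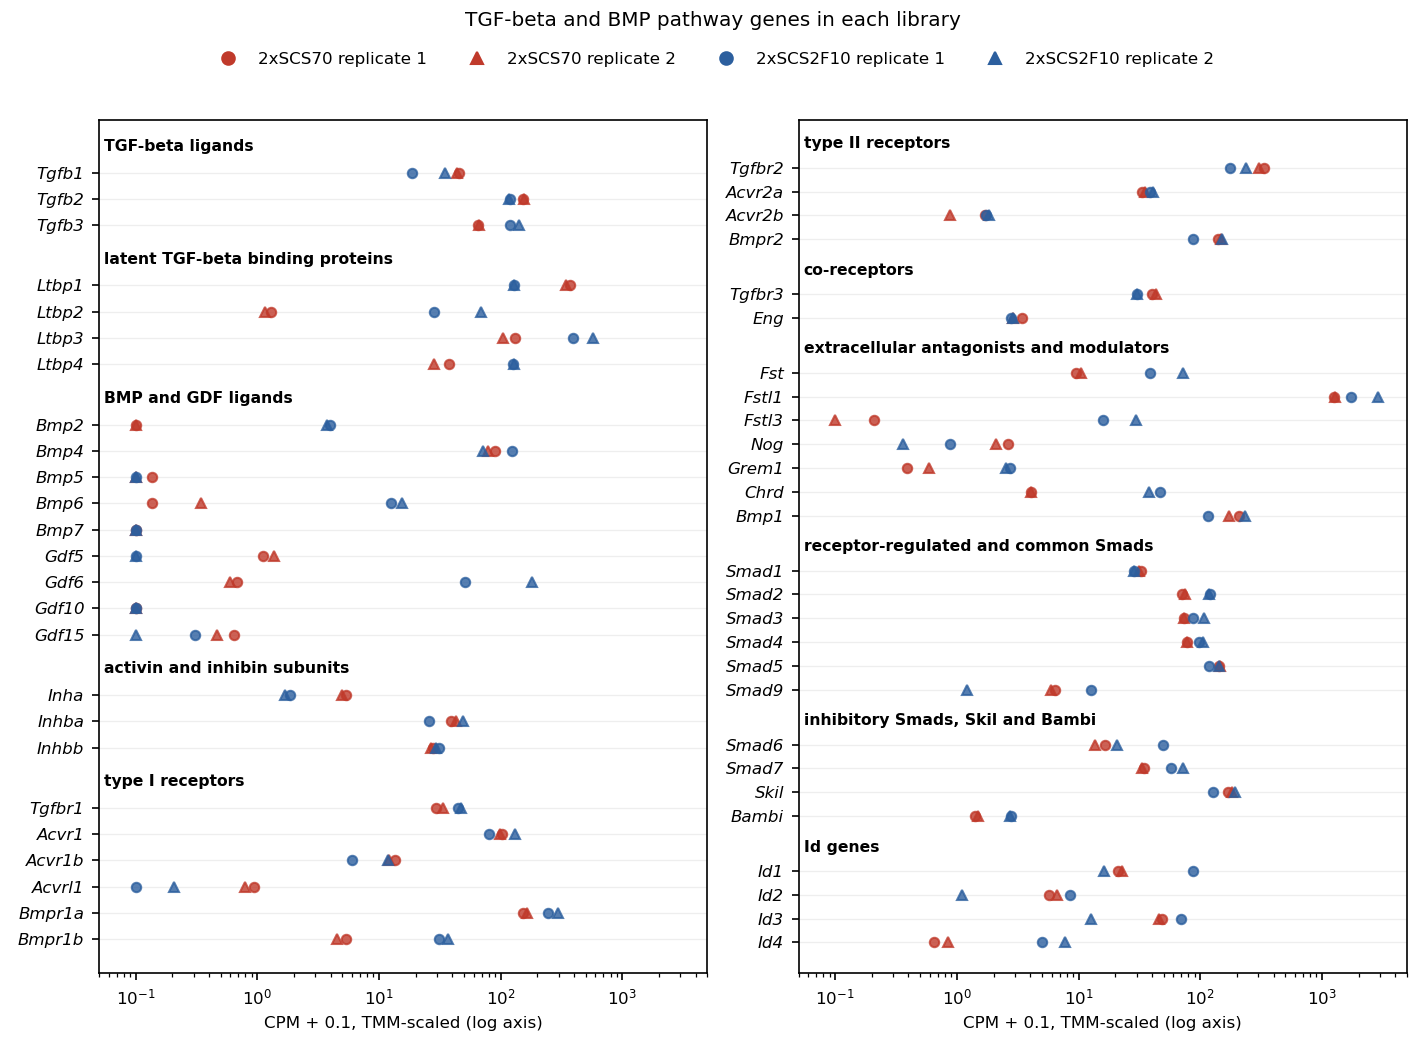
TMM-scaled CPM plus 0.1 on a log axis for each of the 52 genes, grouped by role, with 1 point per library (circles replicate 1, triangles replicate 2). The circles and triangles of 2xSCS70 nearly coincide for most genes, while those of 2xSCS2F10 lie apart for Gdf6, Ltbp2, Smad9, Id1, Id2 and Id3.

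The 4 Id genes encode inhibitors of basic helix-loop-helix factors and are standard BMP targets. Id4 fell in 2xSCS70, while Id1, Id2 and Id3 differed more between the 2 libraries of 2xSCS2F10 than between the line means and were not called. Id4 (chromosome 13, 48261427 to 48264036) had 15 and 18 fragments in 2xSCS70, against 96 and 145 fragments in 2xSCS2F10. Without overlap, its log2 fold change was -3.29 ± 0.36 (edgeR adjusted p = 0.00365), and the call ended without 2xSCS70 replicate 1 (0.0641) or replicate 2 (0.0562). Id1 (chromosome 2, 152736274 to 152737410) had 20.8 and 22.5 CPM in 2xSCS70, against 87.0 and 16.2 CPM in 2xSCS2F10. Id2 (chromosome 12, 25093799 to 25096092) had 5.62 and 6.49 CPM in 2xSCS70, against 8.32 and 0.997 CPM in 2xSCS2F10. Id3 (chromosome 4, 136143822 to 136145392) had 48.5 and 45.8 CPM in 2xSCS70, against 69.3 and 12.6 CPM in 2xSCS2F10. In all 3 genes the 2xSCS70 libraries lay between those of 2xSCS2F10, replicate 1 of which was high and replicate 2 low. None was called (edgeR adjusted p = 0.232, 0.754 and 0.842 for Id1, Id2 and Id3). With 2xSCS2F10 replicate 1 left out, Id1 was higher in 2xSCS70 by a log2 fold change of 0.41 (edgeR adjusted p = 0.0131). With replicate 2 left out it was lower, at -2.01 (edgeR adjusted p = 1.96e-21). Id2 (2.59 and -0.46) and Id3 (1.89 and -0.56) turned in the same way.

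The same difference between the 2xSCS2F10 libraries was seen in Smad9, the BMP-regulated Smad with the lowest level per length, which had 6.24 and 5.88 CPM in 2xSCS70, against 12.4 and 1.10 CPM in 2xSCS2F10. Its log2 fold change of -0.16 ± 0.99 (edgeR adjusted p = 0.907) became 2.44 without 2xSCS2F10 replicate 1 and -1.04 without its replicate 2. Replicate 1 of 2xSCS2F10 was higher than replicate 2 by 11.3-fold for Smad9, 8.35-fold for Id2, 5.48-fold for Id3, 5.38-fold for Id1 and 2.39-fold for Smad6, while Gdf6, Ltbp2 and Bmp1 were higher in replicate 2 by 3.59-fold, 2.42-fold and 2.03-fold. With 0.5 CPM added, 8 of the 49 tested members (16.3%) differed over 2-fold between the 2xSCS2F10 libraries, against 6.20% of all tested genes. Between the 2xSCS70 libraries, 0 of the 49 did, against 0.0828% of all tested genes. These are counts over 1 pair of libraries, with no test. Atoh8, another BMP target from the wider pathway list, had 10.6 and 10.4 CPM in 2xSCS70, against 43.3 and 5.83 CPM in 2xSCS2F10.

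**Figure D3:**
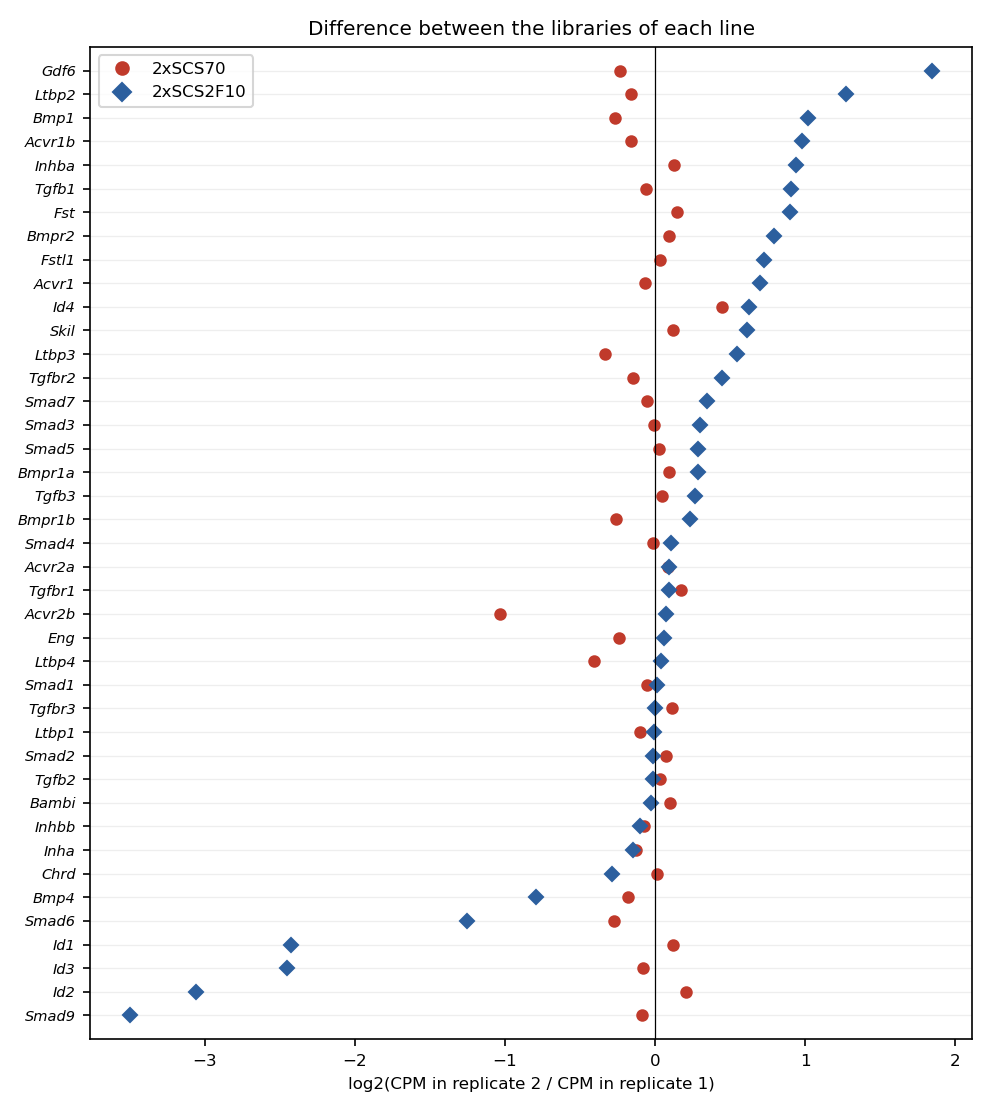
Log2 ratio of replicate 2 to replicate 1 for the 41 genes with 10 or more fragments in every library, in 2xSCS70 (circles) and 2xSCS2F10 (diamonds). The 2xSCS70 points lie near 0 apart from Acvr2b, and the 2xSCS2F10 points run from Smad9, Id2, Id3, Id1 and Smad6 at the low end to Gdf6 and Ltbp2 at the high end.

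The promoters of Id2, Id3 and Smad6 are shown because these BMP target genes were high together in replicate 1 of 2xSCS2F10. They are the 250 bases before the RefSeq start sites (GRCm38.p6), at chr12:25096093-25096342 on the minus strand for Id2, chr4:136143572-136143821 on the plus strand for Id3 and chr9:64022060-64022309 on the minus strand for Smad6. Capitals mark the GC-rich Smad motif GGCGCC, which occurs once, in Id2.
Id2: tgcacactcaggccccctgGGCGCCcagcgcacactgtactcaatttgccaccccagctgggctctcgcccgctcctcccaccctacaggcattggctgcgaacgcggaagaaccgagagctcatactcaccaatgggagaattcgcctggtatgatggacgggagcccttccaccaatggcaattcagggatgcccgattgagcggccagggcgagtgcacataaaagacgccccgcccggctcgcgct
Id3: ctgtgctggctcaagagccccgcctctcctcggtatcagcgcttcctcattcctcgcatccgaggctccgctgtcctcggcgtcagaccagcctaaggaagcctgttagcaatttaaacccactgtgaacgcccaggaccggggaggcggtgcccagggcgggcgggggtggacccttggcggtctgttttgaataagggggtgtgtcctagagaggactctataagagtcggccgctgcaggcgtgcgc
Smad6: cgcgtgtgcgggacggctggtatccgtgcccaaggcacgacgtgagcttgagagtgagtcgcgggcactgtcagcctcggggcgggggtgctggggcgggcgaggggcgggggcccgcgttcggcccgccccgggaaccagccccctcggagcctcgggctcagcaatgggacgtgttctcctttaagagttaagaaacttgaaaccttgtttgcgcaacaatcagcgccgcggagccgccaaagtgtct

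Over the 250 bases before the start site, read on both strands, 36 of the 52 genes had a promoter in the RefSeq table. GGCGCC, a GC-rich motif bound by BMP-activated Smads, occurred in 8 of the 36 (22.2%; Bmpr1a, Bmpr2, Chrd, Grem1, Id2, Id4, Smad9 and Tgfbr1), against 9.59% of all 32851 promoters of that length. CAGACA, the CAGA box of TGF-beta responsive promoters, occurred in 4 (11.1%; Bmp5, Bmpr1b, Fstl3 and Tgfb2), against 17.1% of all promoters. The palindromic Smad box GTCTAGAC occurred in 0 of the 36, against 0.167% of all promoters. The median GC content was 65.6% over the 36 promoters and 52.4% over all promoters. GGCGCC is made of G and C alone, and the part of GC content in its count was not tested. No motif contains another, and a match describes the sequence without showing binding.

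Levels per length place the genes within each line. Fstl1 had the highest mean in both, with 294 RPKM in 2xSCS70 and 442 RPKM in 2xSCS2F10. In 2xSCS70 it was followed by Tgfbr2 (55.4 RPKM), Id3 (41.3 RPKM), Ltbp1 (36.8 RPKM), Bmp1 (35.5 RPKM) and Bmp4 (35.3 RPKM). In 2xSCS2F10 it was followed by Ltbp3 (64.6 RPKM), Id1 (42.5 RPKM), Bmp4 (35.6 RPKM), Bmpr1a (34.5 RPKM) and Id3 (32.4 RPKM). The libraries of Id3, Ltbp1, Bmp1 and Bmp4 in 2xSCS70 overlapped in level, so these cannot be ordered. In 2xSCS2F10 the libraries of Id1 spanned those of Ltbp3, Bmp4 and Bmpr1a and overlapped those of Id3, so Id1 cannot be placed among them. The libraries of Bmp4 (48.0 and 23.2 RPKM) and Id3 (56.1 and 8.57 RPKM) also spanned those of Bmpr1a (34.2 and 34.8 RPKM). Bmp4, Id3 and Bmpr1a therefore cannot be ordered either.

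The make-up of the small families differed between the lines, described here as shares of each family's summed RPKM with no test. Shares within a library do not depend on how libraries are scaled, but the sums do, and RPKM was not TMM-scaled. Tgfb3 held 26.2% and 26.8% of the TGF-beta ligand sum in 2xSCS70, against 50.6% and 50.2% in 2xSCS2F10, and the lines did not overlap. The sum itself was 64.0 and 58.1 RPKM in 2xSCS70, against 53.4 and 54.0 RPKM in 2xSCS2F10, so the 3 ligands together differed less than Tgfb3. Without TMM scaling, no difference of this sum between the lines is read from it. Ltbp1 held 58.6% and 62.7% of the binding protein sum in 2xSCS70, against 13.4% and 9.92% in 2xSCS2F10. Ltbp3 took the larger part in 2xSCS2F10, at 32.5% and 29.6% in 2xSCS70 and 63.9% and 69.1% in 2xSCS2F10. Bmp4 held 97.5% and 97.2% of the BMP and GDF sum in 2xSCS70, against 74.6% and 37.8% in 2xSCS2F10. The remainder in 2xSCS2F10 was mostly Gdf6, at 17.1% and 54.0% in its libraries, against 0.357% and 0.343% in 2xSCS70. The 5 antagonists Fst, Fstl3, Nog, Grem1 and Chrd summed to 5.93 and 5.53 RPKM in 2xSCS70, against 31.6 and 38.4 RPKM in 2xSCS2F10. Within that sum, Nog held 19.5% and 15.0% in 2xSCS70, against 0.979% and 0.230% in 2xSCS2F10. Although the Id gene sum ran from 23.5 to 137 RPKM between the 2xSCS2F10 libraries, Id1 held similar shares of it, 53.7% and 48.8%, against 29.1% and 31.6% in 2xSCS70.

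**Figure D4:**
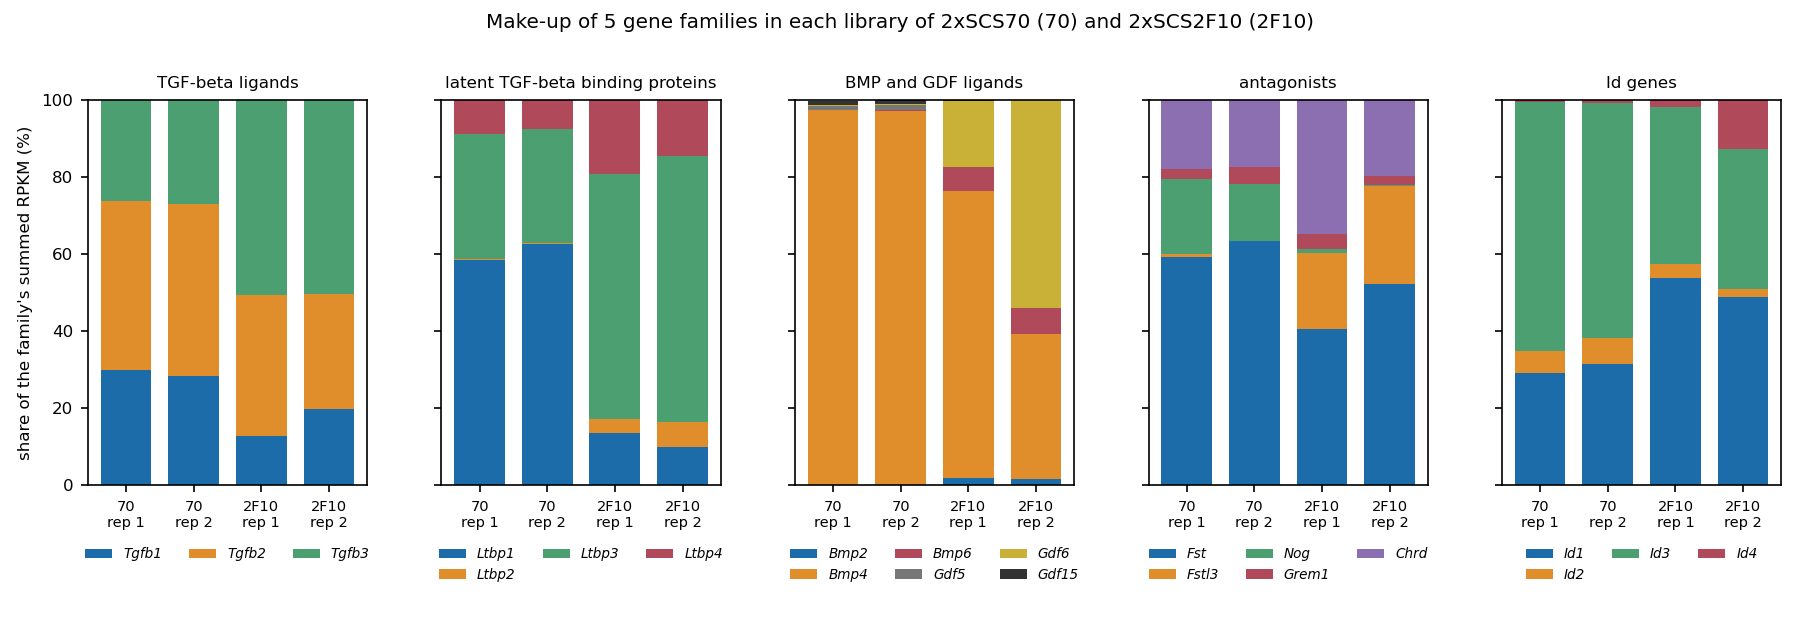
Share of each gene in the summed RPKM of its family (percent, bars stacked to 100, genes that stayed under 0.5% in every library not drawn) in each library of 2xSCS70 (70) and 2xSCS2F10 (2F10). Tgfb3 makes up 50.6% and 50.2% of the TGF-beta ligands in 2xSCS2F10, and in 2xSCS70 Ltbp1 makes up 58.6% and 62.7% of the binding proteins and Bmp4 97.5% and 97.2% of the BMP and GDF ligands.

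A wider list of 90 other genes of the pathway was read from the same fit, 88 with a row and 65 tested (Ldlrad4 and Nrros had none). Of these, 10 were higher in 2xSCS70 (15.4%, against 18.8% of all tested genes) and 29 lower (44.6%, against 21.8%), with a median log2 fold change of -0.43, against 0.02 over all tested genes. Without 2xSCS70 replicate 1 the counts were 0 and 7, and without its replicate 2 they were 3 and 7. Without 2xSCS2F10 replicate 2, 17 were higher and 31 lower. Among 15 tested target genes, 3 were higher (20%; Tgfbi, Junb and Msx1) and 8 lower (53.3%), and among 10 genes of ligand activation and latency, 1 was higher (10%; Furin) and 5 lower (50%), beside the same shares over all tested genes. The 10 genes with the largest called changes at a mean of 10 CPM or more were all lower in 2xSCS70. Cnn1, the smooth muscle calponin and a TGF-beta target, had 0.399 and 0.288 CPM in 2xSCS70, against 188 and 261 CPM in 2xSCS2F10, a log2 fold change of -9.33 ± 0.31 (edgeR adjusted p = 0.000347). Tagln, for the actin-binding protein SM22, had 34.6 CPM in both 2xSCS70 libraries, against 1425 and 2682 CPM in 2xSCS2F10 (edgeR adjusted p = 0.00103). Fbn2, for fibrillin-2 of the microfibrils that hold latent complexes, had 0.363 and 0.164 CPM in 2xSCS70, against 129 and 117 CPM in 2xSCS2F10 (edgeR adjusted p = 0.000407). Pcsk6, a proprotein convertase that cleaves ligands of the family, had 3.16 and 3.29 CPM in 2xSCS70, against 146 and 154 CPM in 2xSCS2F10, a log2 fold change of -5.54 ± 0.14 (edgeR adjusted p = 0.000347). Dcn, for the TGF-beta binding proteoglycan decorin, had 6.68 and 8.67 CPM in 2xSCS70, against 246 and 518 CPM in 2xSCS2F10 (edgeR adjusted p = 0.00165). The others were Tll1, Col1a2, Emilin1, Acta2 and Crim1, with log2 fold changes between -5.19 and -2.49. Of all tested genes, 77.4% did not overlap between the lines, and none of these 10 did, which were picked by size of change. Of these, Tll1, Col1a2, Emilin1 and Acta2 were no longer called without 2xSCS70 replicate 1 (edgeR adjusted p = 0.0617, 0.0823, 0.104 and 0.0803) or replicate 2 (0.0561, 0.0859, 0.0963 and 0.0847). Without 2xSCS2F10 replicate 2, the fold was 32.2 in place of 49.8 for Dcn, 20.6 in place of 36.4 for Tll1 and 4.79 in place of 8.90 for Emilin1. Without 2xSCS70 replicate 1, it was 735 in place of 454 for Fbn2.

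Markers of some other cell types also differed between the lines, where 21.8% of all tested genes were lower in 2xSCS70 and 18.8% higher. Of 8 smooth muscle markers, which include Acta2, Tagln and Cnn1, 7 were lower in 2xSCS70, and their summed level was 840 and 778 CPM in 2xSCS70, against 5440 and 9690 CPM in 2xSCS2F10. All 6 mesothelial markers were lower, with a sum of 90.7 and 80.9 CPM in 2xSCS70, against 3413 and 3916 CPM in 2xSCS2F10. Of 7 fibroblast markers, which include Dcn and Col1a2, 3 were lower and 1 higher, with a sum of 8028 and 6513 CPM in 2xSCS70, against 22011 and 32718 CPM in 2xSCS2F10. The sum over 5 macrophage markers was 8.38 and 8.30 CPM in 2xSCS70, against 6.32 and 9.45 CPM in 2xSCS2F10. Of 5 enteric neuron markers only Uchl1 exceeded 7 fragments in a library, at 460 and 279 fragments in 2xSCS70, against 5419 and 4854 in 2xSCS2F10, and 4 enteric glia markers summed to 1.78 and 1.52 CPM in 2xSCS70, against 1.18 and 0.997 CPM in 2xSCS2F10. The part of these markers' cell states in the differences of the TGF-beta and BMP pathway genes was not tested.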

How the data were processed

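RNA-seq libraries of 2 lines were compared, 2 libraries each, grouped by the line named in the labels. The kit, Illumina TruSeq mRNA per the labels' protocols, does not mark strand. Per the submitters' processing notes, the tools included TopHat2 2.0.6, Bowtie and HTSeq on mouse build mm10. For the annotation behind the counts, none is named in the labels or headers. Per the file headers, the authors deposited counts of reads by gene and, beside them, RPKM values. All counts were even (0 odd values), so 1 fragment was taken as 2 counts. Coordinates are those of the deposited tables. In the tables, 25 symbols that a spreadsheet had changed to dates were restored, and 69 rows shared a name.

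Counts as deposited were tested with edgeR 4.0.16 in R 4.3.3 (quasi-likelihood test, TMM scaling, filterByExpr, no covariate, 2xSCS70 over 2xSCS2F10), with Benjamini-Hochberg adjustment over all 14496 genes tested (8862 were not). The threshold was 0.05 and the common biological coefficient of variation 20.4%. SEs are the size of the log2 fold change over the root of its F statistic. Genes at 0 in 1 line were set against 3 fragments per library. Where a line held 1 to 3 fragments, their ratio and its exact 95% interval are printed. Intervals and floors cover counting error only. Replicate numbers were not used to pair the libraries. The deviations of same-numbered libraries correlated at 0.0455 over 14496 genes. The 2xSCS70 libraries hardly differed (0.0828% of tested genes over 2-fold with 0.5 CPM added), so this value cannot exclude a pairing. The fit was also run on data simulated with the common coefficient of variation of 20.4% in both lines. That setting leaves out the wider spread between the 2xSCS2F10 libraries, so it cannot show how the calls fare under that spread.

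Alternatives were a replicate block, scaling by RLE or by the upper quartile, no filter, each library left out in turn, DESeq2 1.42.0, limma 3.58.1 on log2 RPKM with pseudocounts of 1 and 0.1, and a test against a 1.5-fold change. Values of all libraries are given for genes called at 2-fold or more whose mean reached 1 CPM, for Tgfb1 to Tgfb3, the Id genes, Smad6, Smad7, Skil and Bambi, and otherwise where they help. Of the other pathway genes, up to 10 called ones that averaged 10 CPM or more were named by size of change. The genes and lists were chosen with earlier results of these data known. Promoters came from RefSeq (GRCm38.p6).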

Additional observations from a re-analysis of the deposited data

How the results depend on the processing

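Of the 52 genes, 7 were higher and 19 lower in 2xSCS70 over all libraries. With a replicate block the counts were 5 and 18, and whether the replicate numbers pair the libraries is not known. They were 6 and 19 with RLE scaling, 8 and 16 with upper quartile scaling, 6 and 18 with no filter, 7 and 20 with DESeq2, 9 and 14 on log2 RPKM with either pseudocount, and 4 and 13 in a test against a 1.5-fold change. Leaving out 1 library at a time gave 1 to 16 higher and 7 to 27 lower, with the low counts without either 2xSCS70 library and the high ones without either 2xSCS2F10 library. For the other pathway genes, 10 higher and 29 lower became 6 and 19 in the test against a 1.5-fold change and 11 and 18 on RPKM with a pseudocount of 1. Leaving out 1 library gave 0 to 17 higher and 7 to 40 lower. The median over all tested genes, 0.02 on the log2 scale, was 0.11 with upper quartile scaling and 0.15 and 0.25 on RPKM with pseudocounts of 1 and 0.1. These settings scale the libraries differently. RPKM was used as deposited, without the TMM factors, which were 1.13 and 1.09 in 2xSCS70 and 0.966 and 0.845 in 2xSCS2F10. The part of this scaling in the shifts was not tested.

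None of the 26 called genes, nor of the 39 called in the wider list, changed direction under these alternatives. Uncalled ones did, as log2 fold changes. On RPKM with pseudocounts of 1 and 0.1, Bmp4 was at 0.071 and 0.075, Inhbb at 0.073 and 0.086, Acvr1 at 0.19 and 0.20, Acvr2a at 0.0115 and 0.014 and Smad9 at 0.13 and 0.65. Acvr1 was at 0.015 with upper quartile scaling, and Smad9 at 0.58 with a replicate block. With 1 library left out, the values ran from -0.56 to 0.22 for Bmp4, -0.28 to 0.67 for Inhba, -0.40 to 0.31 for Acvr1, -0.0753 to 0.73 for Bmpr2, -0.32 to 0.71 for Bmp1, -0.0107 to 0.29 for Smad5, -1.04 to 2.44 for Smad9, -0.16 to 0.47 for Skil, -2.01 to 0.41 for Id1, -0.46 to 2.59 for Id2 and -0.56 to 1.89 for Id3.

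With 2 libraries per line, 1 clone per line and groups that differ in strain, temperature and medium supplement, the comparison is between these libraries. Bmp5, Bmp7 and Gdf10, with at most 1 fragment in a library, were too rare to compare at this depth.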
